A study of Mus musculus with 2 samples.

Results

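Among the sorted cells of the MOV library was a small group of cells with transcripts of the embryonic myosin chains, named here late embryonic-myosin myocytes. They were selected on Myl4, an essential myosin light chain of embryonic muscle and the atrium, and Myh3, the embryonic myosin heavy chain (MyHC). A cell was a member if Myl4 and Myh3 together made up at least 500 CPM (the UMIs of a gene per 1000000 UMIs of the cell) with at least 5 UMIs, and if the adult chains Myh1, Myh2 and Myh4 together had fewer UMIs than these. Cells below 2000 UMIs or with 10% or more mitochondrial UMIs were left out first. The selection gave 65 members out of 3332 cells past these limits, from 4954 cells in both matrices. All 65 came from the MOV library, where they made up 2.36% of 2754 cells (exact Clopper-Pearson 95% interval 1.83% to 3.00%). In the sham library 0 of 578 cells met the rule, which allows a share of up to 0.519% (3 counts of the total). Of these 578 cells, however, 324 were droplets with adult MyHC (defined below). The median depth was 6886.5 UMIs in sham and 24302.5 in MOV cells, so the minimum of 5 UMIs was harder to reach in sham. Because Myl4, Myh3 and the adult chains chose the members, their levels are given as a description only.

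MuSCs had been sorted from plantaris of Pax7rtTA; TRE-H2B-GFP mice, in which the Pax7 locus drives a doxycycline-dependent activator that switches on a nuclear GFP. Mice of both groups carried both alleles and were 26 weeks of age, after 2 weeks on doxycycline (2.0 mg/mL) in their water. The sham group had sham surgery and the other had MOV by synergist ablation, and plantaris was taken 5 days later. The 10x Genomics 3′ assay gave 1 library per condition. The labels speak of a single mouse where the methods describe several per group, and the design text names a GFP sort where the methods describe VCAM+ cells without CD31, CD45 and SCA1. Condition and library therefore cannot be told apart, no test was made, and every interval in the text covers counting error only.

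When a MuSC differentiates, MyoD and then myogenin switch on the contractile genes, the cell leaves the cell cycle, and the fusion proteins Mymk and Mymx join it to other myocytes or to a fiber. The first sarcomeres are built largely from embryonic, slow and cardiac isoforms, which the adult fast isoforms replace as the fiber matures. Embryonic MyHC is for this reason a common marker of newly formed muscle in adult tissue.

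The upstream sequences of the marker genes are shown because these genes were high in the same cells. RefSeq promoters (build GRCm38.p6) matched 4 of the 5 markers Myl4, Myh3, Tnnt2, Mybph and Mymx. Capitals mark each CANNTG, the E-box read by the MyoD family, a word whose reverse complement is again CANNTG. The 250 bases upstream of the start held 0 matches for Myl4 (chr11:104550413-104550662, + strand), 1 for Myh3 (chr11:67078050-67078299, + strand), 4 for the first listed start of Tnnt2 (chr1:135836084-135836333, + strand), 1 for its second listed start (chr1:135836739-135836988, + strand, letters not shown) and 1 for Mybph (chr1:134193198-134193447, + strand).
Myl4: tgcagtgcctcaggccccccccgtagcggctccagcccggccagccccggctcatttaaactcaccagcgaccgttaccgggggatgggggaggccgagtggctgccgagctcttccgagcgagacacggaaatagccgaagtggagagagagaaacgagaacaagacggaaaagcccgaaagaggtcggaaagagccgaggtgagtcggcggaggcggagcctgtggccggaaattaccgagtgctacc
Myh3: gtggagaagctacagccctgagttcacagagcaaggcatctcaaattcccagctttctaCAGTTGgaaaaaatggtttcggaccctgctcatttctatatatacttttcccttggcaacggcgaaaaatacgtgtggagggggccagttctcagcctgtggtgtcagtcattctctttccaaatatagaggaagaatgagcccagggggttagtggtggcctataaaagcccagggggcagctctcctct
Tnnt2: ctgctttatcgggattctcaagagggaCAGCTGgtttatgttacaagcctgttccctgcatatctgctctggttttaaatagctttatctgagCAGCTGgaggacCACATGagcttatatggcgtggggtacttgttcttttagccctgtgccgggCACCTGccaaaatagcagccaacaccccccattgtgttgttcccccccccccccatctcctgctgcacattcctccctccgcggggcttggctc
Mybph: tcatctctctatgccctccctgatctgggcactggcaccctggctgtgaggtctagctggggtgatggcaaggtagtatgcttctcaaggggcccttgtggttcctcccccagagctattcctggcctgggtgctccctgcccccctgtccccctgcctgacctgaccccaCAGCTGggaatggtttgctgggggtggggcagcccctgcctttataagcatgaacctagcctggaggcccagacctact
Of all 32851 RefSeq promoters of this length, 66.2% held a CANNTG, with a median of 1 match, so that the first start of Tnnt2 stood above this number and Myl4 below it. The MEF2 motif, searched on both strands, was found in 0.508% of all promoters and in none of these. A match is a run of letters in this window and was not tested as a bound site.

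Members were deep cells, with a median of 53633 UMIs (2155 to 153774) and 5882 detected genes, and a median mitochondrial share of 3.65%. Under 6000 UMIs were found in 5 members, and 100000 or more in 6. The libraries shared 44 cell barcodes, of which 0 belonged to members. The cells scoring highest against simulated doublets were marked, their number set beforehand from an assumed doublet rate. They were 3 sham and 61 MOV cells and 0 of the members, and marked cells were kept. Pdgfra, the receptor that marks fibro-adipogenic cells, and Ptprc, which encodes CD45, had no UMI in any of the 65 members, and Pecam1 (CD31) had a UMI in 1. The 10 fibro-adipogenic markers summed to 461 CPM in members, 619 in Myog cells and 39014 in Pdgfra cells, and 1 member passed 2000 CPM of them.

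Members were set beside cells with Myog and little embryonic myosin, and beside droplets with adult myosin. The Myog cells had at least 500 CPM of Myog, which encodes myogenin, and under 500 CPM of Myl4 and Myh3 together. They numbered 106 (1 sham and 105 MOV) with a median of 39861.5 UMIs. The adult fiber droplets had at least 500 CPM and 5 UMIs of adult MyHC, at least as many of these as of Myl4 and Myh3, and under 500 CPM of Myog. They numbered 342, of which 324 were sham and 18 MOV, with a median of 6106.5 UMIs. As the members were all MOV and the droplets nearly all sham, values against the 18 MOV droplets (median 13398.5 UMIs) are given too. Some of these 18 had little skeletal actin (Acta1), at 140, 507, 631 and 3453 CPM beside a median of 51253 over all droplets. Immune markers summed to 2520 CPM in the 18. The weight of such droplets in the values against MOV droplets was not tested.

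The rule was met by a wide range of levels. Myl4 and Myh3 together ranged from 507 to 29234 CPM in single members, with a median of 2255. Myl4 had a UMI in all 65 members (median 1931 CPM) and exceeded Myh3 in 53. Myh3 was absent in 11 members and had a median of 314 CPM. The members just above the limit had 507, 507 and 508 CPM, and the cells just below it 476, 476 and 462 CPM. A further 3 cells passed 500 CPM with too few UMIs, and 1 cell was left out with 55 embryonic against 60 adult UMIs. Adult MyHC had no UMI in 18 members, and Myh1 led the adult chains in 41 of the others against 4 for Myh4.

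**Figure D1:**
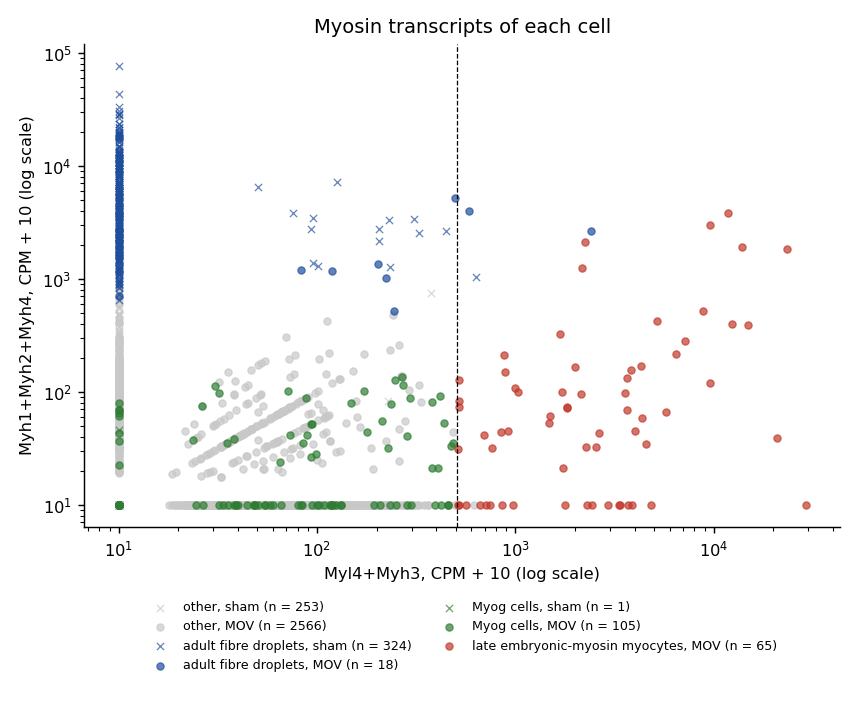
Myl4+Myh3 CPM (x axis) against adult MyHC CPM (y axis) in single cells, both plus 10 on a log scale, a cross for each sham cell and a dot for each MOV cell, with the limit of 500 CPM dashed. The 65 members lie at 507 CPM or more on the x axis, all from MOV, while the 342 adult fiber droplets lie high on the y axis.

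The 3 markers the rule did not use were present in most members. Tnnt2, the cardiac troponin T of early sarcomeres, had a median of 2518 CPM (0 to 17633) and a UMI in 63 members. Mybph, a myosin-binding protein of the thick filament, had a median of 262 CPM (0 to 2517) and a UMI in 50. Mymx, the small membrane protein that completes fusion, had a median of 388 CPM (0 to 3479) and a UMI in 52. UMIs of all 5 markers were found in 42 members, of 4 in 12, of 3 in 4 and of 2 in 7. Thus 11 members carried the name on 3 markers or fewer. Some members near the limit also lacked other muscle transcripts. A member at 512 CPM of Myl4 and Myh3 had no UMI of Myog, Mymk, Ttn or Neb. Another at 959 CPM had no Tnnt2 UMI, 11.7 CPM of Ttn and 561 CPM of Dcn, a fibro-adipogenic marker. The name does not describe such cells well.

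The markers separated members from Myog cells in unequal degree. Summed over cells, Tnnt2 stood at 2877 CPM in members, 708 in Myog cells and 9.99 in fiber droplets. Mybph stood at 521, 13.9 and 68.2 CPM, and MOV droplets alone reached 445 CPM. Mymx stood at 519, 123 and 0.666 CPM. The log2 ratio of members over Myog cells was 5.23 for Mybph (95% interval 4.87 to 5.61), 2.07 for Mymx (1.94 to 2.21) and 2.02 for Tnnt2 (1.97 to 2.08). Mybph alone of the 3 was near its member level in MOV droplets, with a log2 ratio of 0.23.

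Because depth differed, cells were also thinned to 2000 UMIs. After thinning, 78.5% of members had a Tnnt2 UMI, 46.2% a Mymx UMI and 41.5% a Mybph UMI. In Myog cells these shares were 49.1%, 18.9% and 3.77%. In Pdgfra cells, which should lack these genes, the shares were 1.41%, 0.704% and 0.704% (median 23922 UMIs before thinning). Without thinning the UMIs were found in 63, 52 and 50 of 65 members and in 17.6%, 2.11% and 3.52% of Pdgfra cells.

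**Figure D2:**
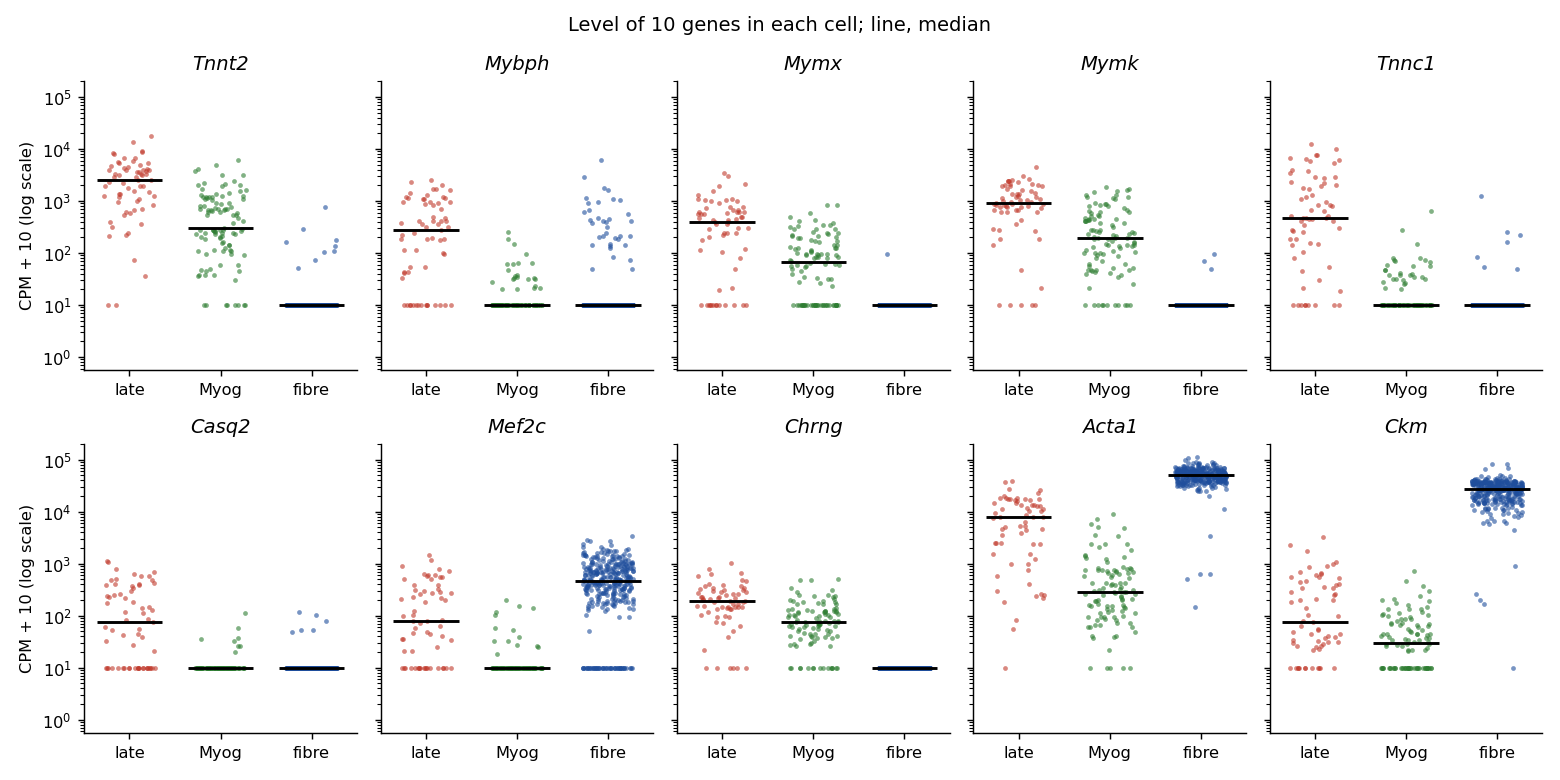
CPM of 10 genes (y axis, CPM plus 10 on a log scale) in members (late), Myog cells and adult fiber droplets, a dot for each cell and a line at the median. Mybph and Tnnc1 separate most members from Myog cells, where 23 and 30 of 106 cells had a UMI, while Tnnt2 and Mymk overlap between both.

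Across all genes, a gene was called higher or lower when the nearer bound of the 95% interval of its ratio lay past 2-fold, among genes with at least 20 UMIs over both groups. Against Myog cells, 301 of 10313 genes were higher (2.92%) and 80 were lower (0.776%), with a median log2 ratio of -0.10 over all genes. Against all fiber droplets, 3326 of 9748 genes were higher (34.1%) and 966 lower (9.91%), with a median of 1.04. This split rests on the scaling: the called genes were 77.5% higher with CPM, 45.3% with TMM and 41.2% with DESeq2 size factors, which moved every log2 ratio by -0.91 and -1.02. With the MOV droplets as reference, 284 of 8725 genes were higher (3.26%) and 356 lower (4.08%), with a median of 0.20. Counts against the droplets are therefore given for both references. With TMM and DESeq2 scaling against all droplets, the medians of the fusion, synapse, G2/M and S phase lists stayed above 0 and those of the fast isoform, scaffold, calcium and metabolic lists below 0.

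Embryonic, slow and cardiac sarcomere isoforms had the largest median ratio over Myog cells of the sarcomere lists. All 9 tested genes of this list outside the rule were higher than in Myog cells (against 2.92% of all genes), with a median log2 ratio of 4.22. In single members Tnnc1, the slow and cardiac troponin C, had a median of 468 CPM (0 to 12529), and in Myog cells a median of 0 and a maximum of 642. The groups overlapped, since 9 members had no Tnnc1 UMI. Summed, Tnnc1 stood at 1563 CPM against 28.1 (log2 ratio 5.80, 95% interval 5.55 to 6.06). Tnni1, slow troponin I, stood at 1345 CPM against 72.2 (4.22). Myh8, the neonatal MyHC, stood at 98.9 CPM against 0.428, with UMIs in 18 of 65 members and 2 of 106 Myog cells. The neonatal chain was thus carried by a minority of members. Actc1, cardiac actin, had the smallest ratio of the list (1.57). Against all droplets 8 of 9 were higher (34.1% of all genes) and 1 lower (9.91% of all genes), with a median of 5.21. Against MOV droplets 5 were higher (3.26% of all genes) and 1 lower (4.08% of all genes), with a median of 2.08. The lower gene was Mybpc1, slow myosin-binding protein C, at 114 CPM against 705 in all droplets and 499 in MOV droplets.

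Adult fast isoforms lay between both neighbors. Of 9 tested outside the rule, 7 were higher than in Myog cells (2.92% of all genes, median log2 ratio 3.38). All 10 tested were lower than in all droplets (9.91% of all genes, median -3.95), under TMM and DESeq2 scaling as well. Against MOV droplets 9 of 10 were lower (4.08% of all genes, median -3.03), and Actn3, the fast fiber actinin, was the exception with a log2 ratio of -0.57. Acta1, skeletal actin, had a median of 7759 CPM in single members (0 to 38974), 274 in Myog cells (up to 9193) and 51253 in droplets (from 140). Neighboring groups overlapped in Acta1, although their medians were far apart. Summed, Acta1 stood at 9389 CPM in members, 802 in Myog cells and 52428 in droplets. Mylpf, the fast regulatory light chain, stood at 7358, 593 and 29739 CPM. Other fast genes were near 0 in both myocyte groups. Mybpc2, fast myosin-binding protein C, had 6 UMIs in all members together (1.65 CPM), 1 UMI in Myog cells (0.214 CPM) and 752 CPM in droplets. Myoz1, a Z-disc protein of fast fibers, stood at 6.87 CPM in members, 4.28 in Myog cells and 2718 in droplets, and 14 of its 25 member UMIs were in 1 cell.

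The balance of paired isoforms was read as the share of the early form among UMIs of both, which are tags of transcript ends and carry no length term. For troponin I the slow form made up 60.2% in members, 37.0% in Myog cells and 4.14% in MOV droplets. For troponin C the slow form made up 46.6%, 15.7% and 0.859%. For calsequestrin, the calcium buffer of the reticulum, the cardiac Casq2 made up 72.2% (95% interval 69.4% to 75.0%), 54.5% (36.4% to 71.9%) and 8.47% (2.81% to 18.7%). Of members, Myog cells and MOV droplets, members had the largest early share in these 3 pairs, although the intervals of members and Myog cells met for calsequestrin. In Pdgfra cells, read as background, the slow form of troponin C made up 27.4% (20.3% to 35.4%) of only 40 slow and 106 fast UMIs, above the share in Myog cells and below that in members. The slow form of troponin I made up 17.2% (10.3% to 26.1%) there.

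Other pairs ran the opposite way. Cardiac and smooth muscle actin made up 32.1% of actin UMIs in members and 73.6% in Myog cells, against 0.567% in MOV droplets. The cardiac and slow forms of troponin T made up 69.9%, 84.2% and 1.91%. The brain form of creatine kinase made up 65.7% in members, 90.9% in Myog cells and 1.37% in MOV droplets, and the ubiquitous enolase 42.3%, 59.9% and 2.92%. Brain phosphoglycerate mutase made up 53.1%, 93.5% and 4.53%, and SERCA2, the calcium pump, 39.3%, 54.0% and 4.76%. For these 6 pairs the share in members lay between those of Myog cells and MOV droplets.

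**Figure D3:**
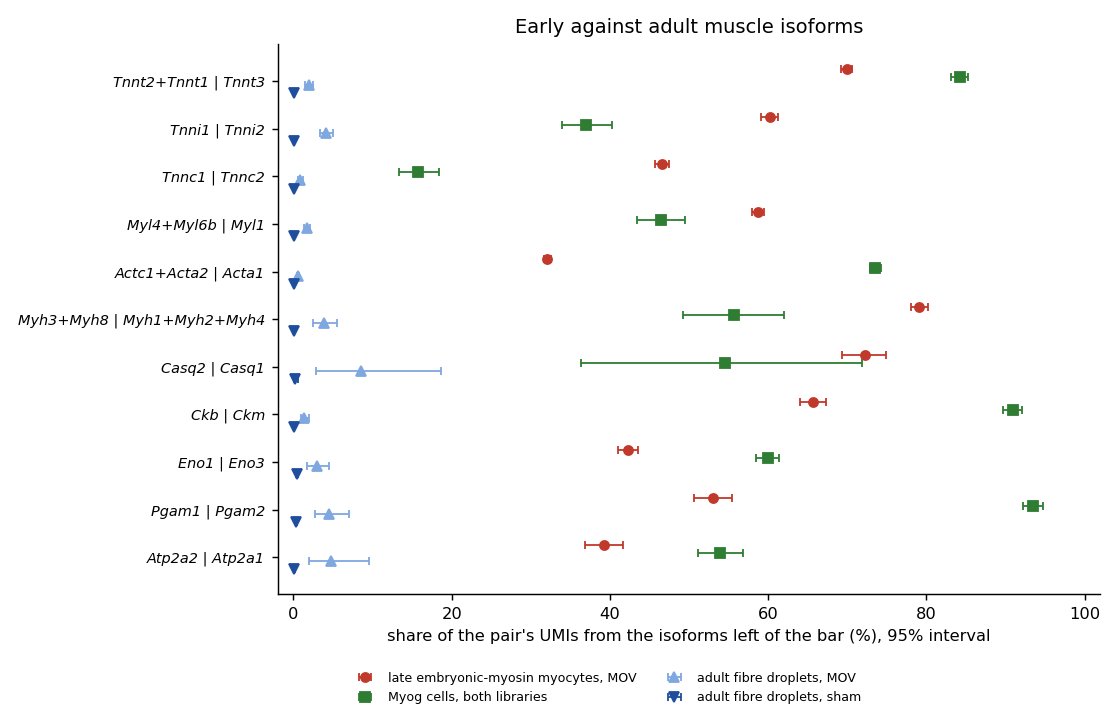
Share of the early isoform in the UMIs of each isoform pair (x axis, percent) for members, Myog cells and the MOV and sham fiber droplets, with exact 95% intervals as bars. The pairs with Myl4 and with Myh3 hold genes that chose the groups, so their shares follow from the selection and are a description only. The slow troponin C share is 46.6% in members, 15.7% in Myog cells and 0.859% in MOV droplets, whereas the cardiac and smooth muscle actin share falls in the order Myog cells, members, droplets.

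Genes of the sarcomere scaffold were broadly higher than in Myog cells, 20 of 24 (2.92% of all genes) with a median log2 ratio of 2.49 and 0 lower. Myoz2, a Z-disc protein, stood at 88.4 CPM against 1.07 (log2 ratio 6.37), and Itgb1bp2 (melusin), a costamere protein of another list, at 114 against 1.07 (6.73). Ttn, which encodes the spring protein titin, stood at 2573 CPM in members, 922 in Myog cells and 932 in droplets. It was 1 of only 3 scaffold genes out of 24 higher than in all droplets, below the 34.1% of all genes. Neb, the thin filament ruler nebulin, stood at 899, 257 and 912 CPM. Des, which encodes desmin, stood at 3223, 1578 and 3593 CPM. The scaffold was therefore uneven against the fibers, with 10 of 24 lower than in all droplets (9.91% of all genes) and 11 lower than in MOV droplets (4.08% of all genes). The lower ones included Tcap, the titin cap, at 42.3 CPM against 4692, and Csrp3, muscle LIM protein, at 172 against 1361.

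**Figure D4:**
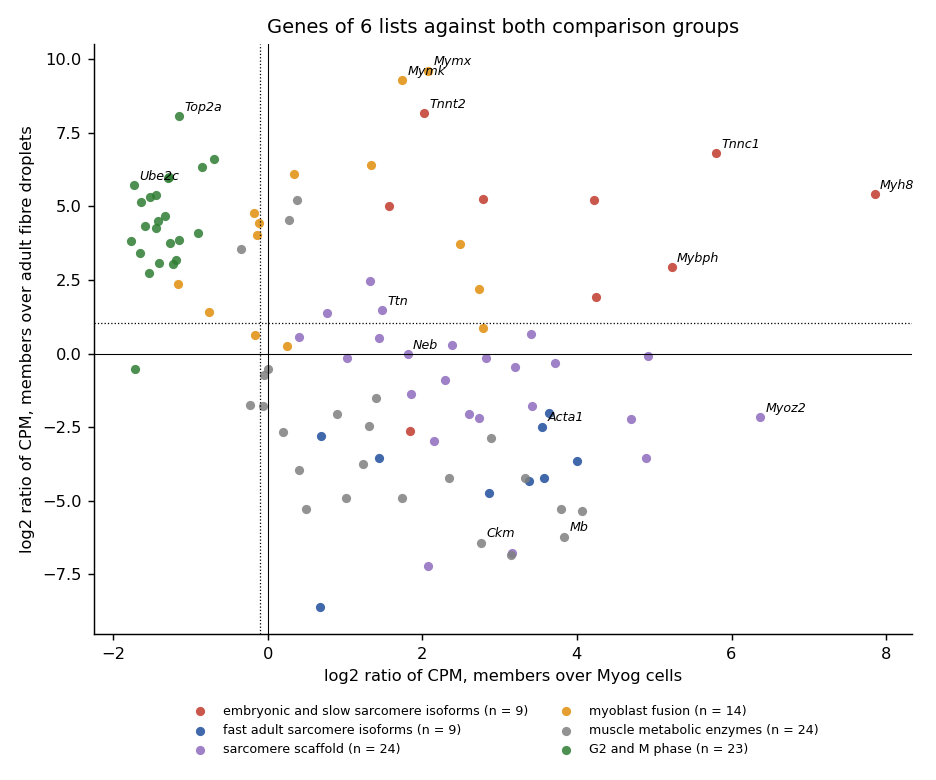
log2 ratio of CPM in members over Myog cells (x axis) against members over all adult fiber droplets (y axis) for the genes of 6 lists, one point per gene, with the medians of all genes dotted (-0.10 and 1.04). Embryonic and slow isoforms lie at the upper right apart from Mybpc1 (1.84 and -2.62), fast isoforms at the lower right, and G2/M genes at the left, nearly all above 0 on the y axis.

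Of the fusion genes, both fusogens were higher in members than in Myog cells and in droplets. Mymk, which starts membrane merger, had a median of 905 CPM in single members (0 to 4517) and 186 in Myog cells (0 to 1893), with overlap. Summed, it stood at 1045 CPM in members and 312 in Myog cells (log2 ratio 1.74, 95% interval 1.66 to 1.83), with 1.66 CPM in droplets. Mymk had a UMI in 60 members and 95 of 106 Myog cells, and after thinning in 72.3% and 42.5%. Both fusogens were present in 51 members and neither in 4. Of 15 fusion genes tested against Myog cells, 6 were higher (2.92% of all genes) and 1 lower (0.776% of all genes). The median log2 ratio of the list was 0.25, and -0.06 when each cell weighed equally. Cav3, the muscle caveolin, stood at 456 CPM against 68.6, and Dysf, the membrane repair protein dysferlin, at 26.6 against 3.86. The others called higher were Mymx, Cdh2 (N-cadherin) and Jam2, and Elmo1, an activator of Rac, was lower at 2.20 against 10.1 CPM, a call not made with TMM or DESeq2 scaling. Against all droplets 9 of 14 were higher, where 34.1% of all genes were, and 0 lower. Against MOV droplets 5 of 14 were higher and 1 lower, where 3.26% and 4.08% of all genes were.

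Myogenic transcription factors had a median ratio over Myog cells near that of all genes. Of 24 tested, 2 were higher (2.92% of all genes) and 2 lower (0.776%), with a median of -0.20 against -0.10 for all genes. Mef2c, a MEF2 factor of muscle and heart, had UMIs in 46 of 65 members (up to 1469 CPM) and 14 of 106 Myog cells (up to 191 CPM). Summed, it was higher in members, at 220 CPM against 11.1 (log2 ratio 4.31, 95% interval 3.90 to 4.74), and stood at 557 CPM in droplets. After thinning it was seen in 24.6% of members, 0 of 106 Myog cells (exact 95% interval up to 3.42%) and 4.93% of Pdgfra cells, while the share in droplets was 62.3%. Tead4, a TEAD factor of muscle genes, was the other higher gene at 37.4 against 13.5 CPM. Msc (musculin), a repressor of MyoD targets, was lower at 20.9 against 78.4 CPM, and Sox8 was lower at 3 UMIs against 34. Myod1 stood at 283 CPM in members and 286 in Myog cells. Myf6, the factor of mature fibers, stood at 9.89, 3.43 and 232 CPM in members, Myog cells and droplets. Pax7, which defines MuSCs, stood at 12.9 CPM in members, 29.1 in Myog cells and 191 in Pax7 cells.

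Myogenin itself was not uniform. Its median over members was 2406 CPM (0 to 8279), and 52 members passed the 500 CPM that define the Myog cells, while 13 did not and 4 had no UMI. In these 13 members Mymx stood at 28.9 CPM against 620 in the other 52. Mybph stood at 62.5 against 616 CPM, and Myf5, a factor of undifferentiated myoblasts, at 130 against 35.8 CPM. Summed, the 13 members were lower than the 52 in the fusion marker and Mybph. The 24 G2/M genes summed to 2023 CPM in the 13 and 564 CPM in the 52, but 2 of the 13 held 1139 of their 1262 G2/M UMIs. Without members of 2000 CPM or more of G2/M transcripts the sums were 333 CPM in 11 cells and 232 CPM in 48. At or above 100000 UMIs were 2 of the 13 and 4 of the 52, and the median depths were 44571 and 55910 UMIs.

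Among the receptors of the neuromuscular synapse, members carried the fetal subunit. Chrng, the fetal gamma subunit of the acetylcholine receptor, had 764 UMIs in members, and Chrne, its adult replacement, had 1. Myog cells had 418 against 1, and Chrne had only 3 UMIs in all 342 droplets, so that the adult subunit was hardly captured in any of these groups. Chrng stood at 210 CPM against 89.5 in Myog cells (log2 ratio 1.23, 95% interval 1.05 to 1.40) and had no UMI in 342 droplets, where a floor of 3 UMIs gives a log2 ratio of at least 7.72. Chrna1, the alpha subunit, stood at 1004 CPM in members, 683 in Myog cells and 9.32 in droplets. Of 11 synapse genes tested, Chrng and Ache, the acetylcholinesterase, were higher than in Myog cells (2.92% of all genes) and 0 were lower. Against all droplets 7 of 10 were higher (34.1% of all genes), and against MOV droplets 5 of 10 (3.26% of all genes).

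Calcium handling genes were mostly higher than in Myog cells. Against Myog cells 14 of 24 were higher (2.92% of all genes) and 0 lower (median log2 ratio 1.52). Against all droplets 4 of 25 were higher, below the 34.1% of all genes, and 11 lower, above the 9.91% of all genes (median -0.74). Casq2 had UMIs in 42 of 65 members (up to 1126 CPM) and 8 of 106 Myog cells (up to 105 CPM). Summed, it stood at 201 CPM in members, 3.86 in Myog cells and 3.00 in droplets. Hrc, a calcium-binding protein of the reticulum, stood at 89.3 CPM against 5.57 in Myog cells, and Trdn, the junctional protein triadin, at 120 against 11.1. Pvalb, the calcium buffer of fast fibers, stood at 5.49 CPM in members and 4068 in droplets, with UMIs in 13 members. The lower count fell to 1 of 24 against MOV droplets, where 4.08% of all genes were lower. In those droplets Pvalb stood at 203 CPM.

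Metabolic enzymes of the fiber were low beside the droplets. Of 28 tested, 23 were lower than in all droplets (9.91% of all genes) and 3 higher (34.1% of all genes), with a median log2 ratio of -4.11, and 17 of 25 were lower than in MOV droplets (4.08% of all genes). Ckm, muscle creatine kinase, had a median of 65.0 CPM in single members (0 to 3207), 19.8 in Myog cells and 27862 in droplets. Summed, Ckm stood at 301 CPM in members, 44.3 in Myog cells and 25790 in droplets. Mb, which encodes myoglobin, stood at 58.0, 4.07 and 4323 CPM. Ckmt2, the mitochondrial creatine kinase, stood at 2.75 CPM against 808 in droplets. The 3 higher genes were the nonmuscle forms Ckb, Eno1 and Pgam1. Against Myog cells 10 of 24 were higher (2.92% of all genes) and 0 lower (median 1.12), and Gapdh stood at 3491 against 3630 CPM.

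Genes of the dystrophin complex and costamere were higher than in Myog cells for 6 of 19 (2.92% of all genes) and lower for 1 (0.776% of all genes), with a median of 0.90. The lower gene was Tln2, a talin that links integrins to actin, at 42.0 against 114 CPM. Against all droplets 8 of 20 were higher and 4 lower, against 34.1% and 9.91% of all genes, with a median of 0.65, below the 1.04 of all genes, that became -0.27 with TMM and -0.37 with DESeq2 scaling.

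Of the cell cycle inhibitors, Cdkn1a and Cdkn1c were high in both myocyte groups. The list as a whole had a median log2 ratio of -0.21 over Myog cells. Cdkn1a (p21) had a median of 1087 CPM in single members (0 to 4676) and 427 in Myog cells (0 to 2262), with overlap. Summed, Cdkn1a stood at 1452 CPM in members, 560 in Myog cells and 24.3 in droplets (log2 ratio over Myog cells 1.37, 95% interval 1.31 to 1.44). It was the 1 of 19 genes higher than in Myog cells, where 2.92% of all genes were. Cdkn1c (p57) stood at 2316 CPM in members and 2676 in Myog cells, against 115 in Pax7 cells and 14.6 in droplets. In single cells Cdkn1c ran from 0 to 18894 CPM in members (median 1105) and from 0 to 19667 CPM in Myog cells (median 1462), nearly the same range. Against all droplets 11 of 18 inhibitors were higher (34.1% of all genes) and 0 lower, and against MOV droplets 4 of 18 (3.26% of all genes).

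Cycle genes themselves were lower in part. Of 24 G2/M genes, 11 were lower than in Myog cells (0.776% of all genes) and 0 higher (median log2 ratio -1.37), among them Ube2c, the mitotic ubiquitin-conjugating enzyme, at 70.6 against 234 CPM. Of 23 S phase genes 0 were called either way (median -0.54). The G2/M genes summed to at least 2000 CPM in 6 of 65 members (9.23%), 24 of 106 Myog cells (22.6%) and 151 of 526 Pax7 cells (28.7%). These 6 members had 507 to 1671 CPM of Myl4 and Myh3, below the median of 2255, and 47326 to 153774 UMIs. The median member had 163 CPM of G2/M transcripts against 260 in Myog cells. Thinned to 2000 UMIs, 7 of 65 members (10.8%) and 30 of 106 Myog cells (28.3%) had 3 or more G2/M UMIs. The 6 members held 2214 of the 2963 G2/M UMIs of all members, and the other 59 summed to 245 CPM. The number of lower G2/M genes was 23 of 24 without the 6 members of 100000 UMIs or more and 24 with the limit at 1000 CPM of Myl4 and Myh3. It was 0 with both the member and the Myog cell limit at 250 CPM, and 7 with TMM scaling of the same cells. Against all droplets, where G2/M genes summed to 34.0 CPM and S phase genes to 81.2 CPM, 22 of 23 and 21 of 23 were higher (34.1% of all genes). Against MOV droplets 5 of 23 and 1 of 22 were higher (3.26% of all genes).

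The members were also ordered by Myl4 and Myh3, the value that selected them, so the following values are a description of cells of 1 library. The lowest 22 had 507 to 1491 CPM of these genes, the middle 22 had 1671 to 3672 and the highest 21 had 3828 to 29234, at median depths of 56206.5, 51399.5 and 52840 UMIs. Acta1 stood at 3580, 8437 and 17690 CPM in these sets, and Tnnc1 at 374, 873 and 3854 CPM. Casq2 stood at 24.4, 145 and 487 CPM, Mymk at 583, 786 and 1924 CPM, and Myh8 at 3.05, 62.3 and 261 CPM. Each of these 5 genes was lowest in the first set and highest in the last. G2/M transcripts summed to 1472, 691 and 149 CPM, but 5 members held 1655 of 1928 G2/M UMIs of the lowest set and 1 member 559 of 877 in the middle set. Without these 6 cells the sums were 308, 285 and 149 CPM. Cdkn1a was highest in the middle set, at 805, 2183 and 1377 CPM, and Cdkn1c stood at 1839, 2351 and 2862 CPM. Over the 65 members, Spearman's rho with Myl4 and Myh3 was 0.75 for Tnnc1, 0.74 for Mybph, 0.71 for Acta1, 0.61 for Mymk and -0.04 for Cdkn1c. It was -0.09 for depth. Myl4 and Myh3 themselves had a rho of 0.23, and Myog and Mymx one of 0.72.

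**Figure D5:**
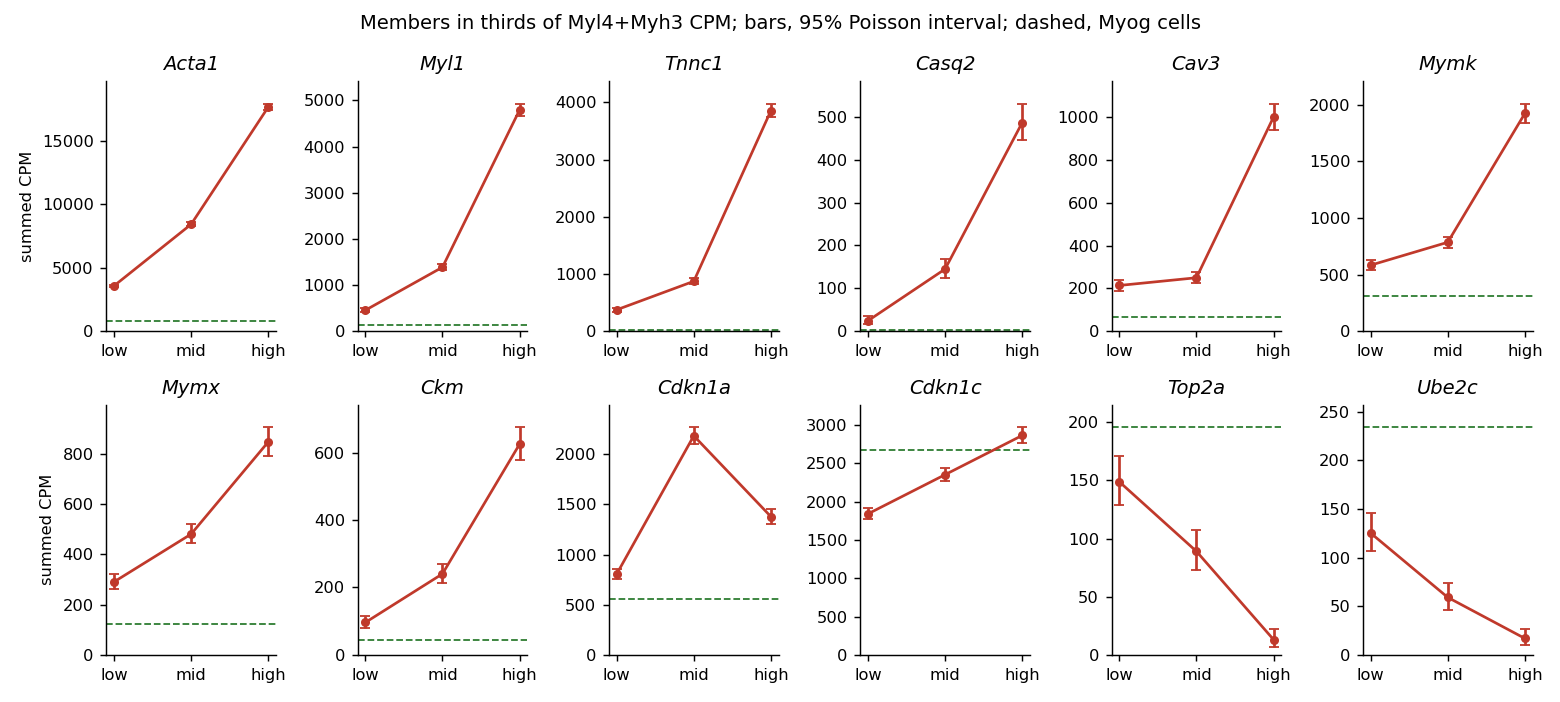
Summed CPM (y axis, linear from 0) of 12 genes in the members with the lowest, middle and highest Myl4+Myh3 CPM (22, 22 and 21 cells), with 95% Poisson intervals as bars and the level of Myog cells dashed. Acta1, Tnnc1, Casq2 and Mymk are lowest in the low and highest in the high set, Top2a and Ube2c the reverse, with most G2/M UMIs in 6 cells, and Cdkn1a is highest in the middle set.

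The genes farthest from no change were of mixed kinds. Against Myog cells, the 10 highest outside the rule were Myh8, Tnnc1, Itgb1bp2, Myoz2, Casq2, Mybph, Tceal7, Capn3, Tnni1 and Smpx. Capn3, the muscle calpain, had 56 UMIs in 13 members and 0 in Myog cells, a log2 ratio of at least 4.58. The 10 lowest were Reg3g, St8sia5, Arl4d, Ckap2, Adm, Piezo2, Knstrn, Msc, Ube2c and Sox4. Reg3g came from few cells, with 184 of its 186 UMIs in 1 Myog cell, and 1 UMI in members. Sox4, a factor of progenitors, had UMIs in 98 of 106 Myog cells and stood at 223 CPM against 70.9 in members. Against all droplets the 10 highest were Acta2, Mymk, Mymx, Tnnt2, Aif1l, Chrng, Ctrb1, R3hdml, Cdkn1c and Gal, of which Aif1l, Chrng, Ctrb1 and R3hdml had no droplet UMI. Acta2, smooth muscle actin, stood at 2599 against 5.33 CPM, and Gal, the neuropeptide galanin, at 1758 against 11.3. The 10 lowest were Pvalb, Rpl3l, Myoz1, Tmod4, Mybpc2, Hspb6, Ppp1r1a, Ckmt2, Mss51 and Car3. Ppp1r1a, a phosphatase inhibitor, had 507 UMIs in droplets and 0 in members, a log2 ratio of -7.68 or lower.

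Of the remaining lists against Myog cells, immediate-early genes were called in 0 of 21 either way. Quiescence markers were lower in 1 of 18 (0.776% of all genes), and interferon-induced genes were higher in 1 of 18 (2.92% of all genes). That gene, Gbp2, had 158 of its 169 member UMIs in 1 cell. Growth factor and imprinted genes were higher in 3 of 21 and lower in 4 (2.92% and 0.776% of all genes). The higher ones were the growth factor Igf2 at 106 against 35.4 CPM, its neighbor H19 at 444 against 134 CPM, and Bex1 at 487 against 159 CPM. The lower ones were Meg3, Dlk1, Plagl1 and Bmp4. Of 10 genes of muscle ubiquitin ligases and denervation, 3 were higher (2.92% of all genes), among them Trim63 (MuRF1) at 62.1 against 2.78 CPM. In that list 1 was lower (0.776% of all genes), Mt1, at 999 against 2148 CPM.

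Markers of other cells summed to 461 CPM or less per list in members. Fibro-adipogenic markers were higher than in Myog cells for 1 of 7 (2.92% of all genes), Ly6a (SCA1), with 171 of 209 member UMIs in 1 cell. Of 3 tenocyte markers 1 was lower (0.776% of all genes), and Scx stood at 219 against 123 CPM. Tenocyte markers summed to 241 CPM in members, 179 in Myog cells and 41.8 in Pax7 cells. Immune markers summed to 14.3 CPM in members and 2520 CPM in MOV droplets, endothelial markers to 11.0 CPM, mural markers to 24.4 CPM and Schwann markers to 1.37 CPM in members. Erythroid markers summed to 10.2 CPM, with 26 of 31 Hba-a1 UMIs in 1 member. Erythroid genes were higher than in Myog cells for 1 of 1 tested and endothelial genes for 1 of 3, where 2.92% of all genes were. The endothelial gene was Cldn5, with 9 of 22 UMIs in 1 member. Mural genes were called in 0 of 3 either way, as was the 1 immune gene tested, and no Schwann gene reached 20 UMIs. The part of these transcripts in the other values was not tested.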

How the data were processed

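The files were raw matrices of whole UMI counts, which the authors made with Cell Ranger 6.0.0 on mm10, 1 matrix per library. The submitters' processing notes also name R 4.0.2 and Seurat 4.0.2. Per the methods, doublets were gated out during FACS, and the authors later removed further ones with DoubletFinder on the integrated data. That later step was not applied to the cells used here. Counts were deposited for 1100 sham cells (7302661 UMIs) and 3854 MOV cells (88498487 UMIs), with 32285 genes, and 578 and 2754 cells passed the limits of 2000 UMIs and 10% mitochondrial UMIs.

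The UMIs of a group's cells were added up per gene and scaled to CPM. Pax7 cells had at least 100 CPM and 2 UMIs of Pax7, and Pdgfra cells at least 200 CPM and 3 UMIs of Pdgfra, each with under 500 CPM of Myog, of Myl4 and Myh3, and of adult MyHC. Ratios carry exact conditional binomial 95% intervals and shares exact Clopper-Pearson intervals. A ratio against 0 UMIs was taken against a floor of 3. With 1 library per condition no p-value was computed. Named genes were the 10 higher and 10 lower genes per comparison whose nearer bound lay farthest from no change, with at least 50 UMIs, leaving out genes of the rule, mitochondrial genes and predicted or clone-named genes, plus the highest and most changed genes of each list. List counts leave out the genes of the rule. The members and the gene lists were chosen with earlier results of these data known, and the isoform pairs after their values were seen. Cells were thinned to 2000 UMIs at random with a fixed seed. Alternatives covered the mitochondrial, depth, myosin and UMI limits, TMM and DESeq2 scaling, equal weight per cell, doublet removal with scrublet and each reference library. The ratios and calls were tested on simulated Poisson counts per gene. These held no spread between cells, so that test could not show how such spread affects the calls. Python 3.11.15 was used with numpy 2.4.6, scipy 1.17.1, pandas 2.3.3, scanpy 1.11.5 and matplotlib 3.10.9, and R 4.3.3 with edgeR 4.0.16 and DESeq2 1.42.0 for scaling factors only.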

Additional observations from a re-analysis of the deposited data

How the results depend on the processing

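The number of members ranged from 46 (at least 1000 CPM of Myl4 and Myh3) to 94 (at least 250 CPM), with 0 sham cells under every limit tried. Against Myog cells, the number of lower genes moved from 80 to 247 with members of at least 1000 CPM, 53 with DESeq2 size factors and 131 with equal weight per cell. It was 143 with the 52 members of 500 CPM Myog or more and 165 with the 59 members below 100000 UMIs, both chosen after seeing the data. The called genes were 79.0% higher as reported, 60.1% at 1000 CPM and 65.3% below 100000 UMIs. The number of higher genes stayed within 277 to 373. Against fiber droplets, 284 genes were higher and 356 lower within the MOV library and with MOV droplets as the reference, 1511 and 1826 with TMM, and 1370 and 1958 with DESeq2 size factors. The cause of these shifts was not tested. Reg3g turned to a log2 ratio of 0.31 without doublet-like cells, where both groups were under 3 UMIs. For named genes against Myog cells, 180 values under alternatives moved by less than the interval, 19 moved and 1 turned. Against droplets 179 stayed and 81 moved. List medians were counted as moved when they shifted past the median half-width of their genes' intervals. Against Myog cells 167 list medians stayed and 13 moved, and against droplets 152 stayed and 93 moved. With MOV droplets as the reference, 17 list medians moved and 2 stayed. The MOV library alone and MOV droplets as the reference are the same comparison against droplets, and both are in these totals. No paired analysis was possible because each condition had 1 library, and for the same reason no replicate could be left out. Values against MOV droplets rest on 18 droplets with 256323 UMIs.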
